A study of Homo sapiens with 11 samples.

Results

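Genes that kidney tubule cells are known to switch on after injury or during repair were followed in HK2 cells: *HAVCR1*, *LCN2*, *SPP1*, *CLU*, *SOX9*, *PROM1*, *CD24*, *VCAM1*, *CCL2* and *IGFBP7*. They were chosen by name, 10 of the 58243 genes in the RNA-seq data. HK2 is a cell line made from proximal tubule epithelium of a human kidney, immortalised with papillomavirus genes. The cells were unmodified, were all grown in the same serum-containing medium with 0.05% DMSO, and received no injury, so no group can be set against another and no test of a treatment is possible. RNA was sequenced in 2 libraries, and ChIP-seq of H3K4me3, H3K27ac and H3K27me3 was done in 2 replicates of each mark. The labels do not say whether the replicates came from separate cultures, so the spread given here may be technical.

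In the kidney, a damaged proximal tubule cell loses its transport program and turns on a set of surface, secreted and nuclear proteins. Some are used as urinary injury markers, some recruit leukocytes, and some mark the cells that divide and refill the tubule. H3K4me3 is a histone mark of promoters, H3K27ac of active promoters and enhancers, and H3K27me3 of chromatin repressed by Polycomb proteins, and a promoter that carries both H3K4me3 and H3K27me3 is called bivalent.

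The promoter sequences below show members of high and of low expression from a RefSeq table that leaves out *IGFBP7*, *SOX9*, *CLU* and *CCL2*. *CD24* is in that table, but its sequences are not printed. Each is given 5′ to 3′ on the strand of its gene, in GRCh37 positions, from the RefSeq promoter table of GRCh38.p14 placed on GRCh37 by exact match, and leaves out bases in annotated exons of the gene itself. *HAVCR1* at chr5:156486131-156486377 (minus strand) and *SPP1* at chr4:88896616-88896818 (plus strand) belong to genes of high expression. *VCAM1* at chr1:101185048-101185297 (plus strand), *LCN2* at chr9:130911544-130911719 (plus strand) and *PROM1* at chr4:16085356-16085600 (minus strand) belong to genes of low expression or listed at 0. Capitals mark matches, on either strand, to 5 strings, where N is any base. They were TATAAA of the core promoter, CCAAT of upstream promoters and GGGCGG as bound by SP1. The others were TGANTCA, a loose form of the site bound by AP-1 that also matches other strings, and GGGNNTTCC as bound by NF-kB.
HAVCR1: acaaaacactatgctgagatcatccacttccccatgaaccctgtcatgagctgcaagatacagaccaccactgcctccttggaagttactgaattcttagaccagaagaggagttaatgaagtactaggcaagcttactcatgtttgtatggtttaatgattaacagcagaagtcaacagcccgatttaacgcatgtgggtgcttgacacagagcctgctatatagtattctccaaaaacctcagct
SPP1: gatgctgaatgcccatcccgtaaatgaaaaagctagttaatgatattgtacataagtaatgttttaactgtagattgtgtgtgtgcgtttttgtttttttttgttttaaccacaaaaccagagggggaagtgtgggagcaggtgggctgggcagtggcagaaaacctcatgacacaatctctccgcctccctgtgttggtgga
VCAM1: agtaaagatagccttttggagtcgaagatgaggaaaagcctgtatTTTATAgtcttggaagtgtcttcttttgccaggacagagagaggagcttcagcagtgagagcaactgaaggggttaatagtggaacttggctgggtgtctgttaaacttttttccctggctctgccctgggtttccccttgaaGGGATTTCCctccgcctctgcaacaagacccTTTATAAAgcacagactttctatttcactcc
LCN2: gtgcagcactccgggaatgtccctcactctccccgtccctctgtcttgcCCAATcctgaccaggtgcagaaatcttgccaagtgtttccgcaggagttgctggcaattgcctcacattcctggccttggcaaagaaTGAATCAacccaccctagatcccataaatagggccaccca
PROM1: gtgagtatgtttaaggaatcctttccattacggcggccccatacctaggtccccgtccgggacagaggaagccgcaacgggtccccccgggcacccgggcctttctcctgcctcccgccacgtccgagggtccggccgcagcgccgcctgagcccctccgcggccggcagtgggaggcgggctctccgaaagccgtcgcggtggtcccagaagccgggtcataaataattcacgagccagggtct

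None of the 5 strings was found in the printed stretches of *HAVCR1*, *SPP1* and *PROM1*. The *SPP1* stretch ran only from position -250 to -48 relative to its RefSeq start, since the bases nearer to it lie in an annotated exon. A string nearer to the start, where *VCAM1* held TATAAA, could therefore not be found in *SPP1*. The printed stretches of *SPP1* and *LCN2*, of 203 and 176 bases, were shorter than the 250 bases used for the shares below. *VCAM1* held TATAAA on the plus strand from position -29 to -24 relative to its RefSeq start and on the minus strand from -31 to -26 and from -205 to -200, where the first 2 matches overlap. It also held GGGATTTCC, a match to GGGNNTTCC, from -62 to -54. *LCN2* held CCAAT from -139 to -135 and TGAATCA, a match to TGANTCA, from -52 to -46. A second stretch of *PROM1*, before its RefSeq start at 16077741 and not printed, held TGAGTCA, a match to TGANTCA, from -189 to -183. Over the 250 bases before the start in 35116 RefSeq promoters, the share with a match on either strand was 10.7% for TATAAA, 32.01% for CCAAT, 42.6% for GGGCGG, 6.57% for TGANTCA and 5.78% for GGGNNTTCC. A match is only a run of letters, and no binding was measured.

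The windows also differed in CG dinucleotides, for which the median over all these promoters was 11 in 250 bases. *HAVCR1* and *VCAM1* had 2 each, *SPP1* 3 and *LCN2* 4. The 4 RefSeq starts of *PROM1* had 13, 26, 17 and 5, and the 3 of *CD24* had 20, 27 and 17. Of all promoters, 14.7% had fewer CG dinucleotides than *HAVCR1* and 80.4% had fewer than the printed *PROM1* window.

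Expression was read as FPKM, the fragments per kilobase of transcript scaled to all mapped fragments of the library, summed over the annotated transcripts of a gene. The members spanned the whole range of expression. *SPP1*, *IGFBP7*, *CD24* and *HAVCR1* were abundant, *CLU* was intermediate, *CCL2*, *VCAM1*, *LCN2* and *SOX9* lay below 1 FPKM, and *PROM1* was listed at 0. Of the 10 members, 5 reached 1 FPKM in both libraries, while 58.8% of 19645 protein-coding genes did. The median of the members was 4.64 FPKM and that of all protein-coding genes 3.32.

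**Figure D1:**
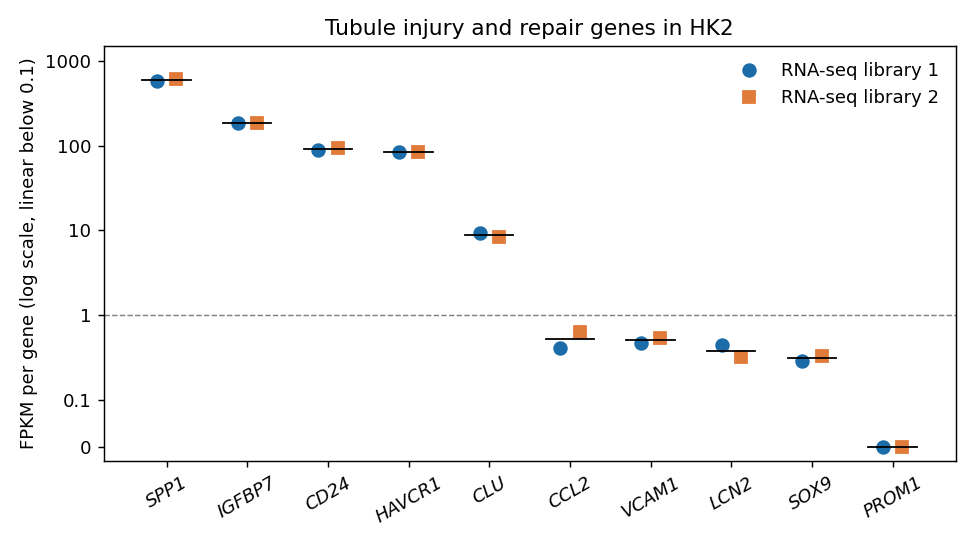
FPKM of each gene (vertical axis, logarithmic above 0.1 and linear below) in RNA-seq library 1 (circles) and library 2 (squares), with the mean of both as a black line and an FPKM of 1 as a dashed line. Genes run from *SPP1*, at 578 and 613, to *PROM1*, at 0 in both, with no member between 1 and 8 FPKM.

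Among the membrane receptors and adhesion proteins, *HAVCR1* (ENSG00000113249, chromosome 5 from 156453753 to 156496407, minus strand, GRCh37) encodes KIM-1, a phosphatidylserine receptor with which injured tubule cells engulf dying neighbours. Its FPKM was 84.3 in library 1 and 84.7 in library 2, a mean of 84.5 ± 0.273 (SD, n = 2). It was higher than 96.9% of protein-coding genes. In a healthy tubule the gene is known to be nearly silent.

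*CD24* (ENSG00000272398) encodes a glycoprotein tied to the membrane by a lipid anchor, found on scattered progenitor-like tubule cells. Its FPKM was 88.7 and 94.7, a mean of 91.7 ± 4.25 (SD, n = 2). Near-identical copies of *CD24* lie elsewhere in the genome and can share its reads, so its level is uncertain. The gene has no entry in the GRCh37 annotation used, and its chromatin marks were not analysed here.

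*PROM1* (ENSG00000007062, chromosome 4 from 15964699 to 16086001, minus strand) encodes CD133, a membrane glycoprotein that is read together with CD24 as a marker of those scattered cells. All 20 of its transcripts were listed at 0 in both libraries. The 2 surface markers therefore differed, with *CD24* at 88.7 FPKM or more and *PROM1* listed at 0.

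*VCAM1* (ENSG00000162692, chromosome 1 from 101185298 to 101204601, plus strand) encodes an adhesion molecule for leukocyte integrins, used to mark tubule cells that fail to recover. Its FPKM was 0.475 and 0.534, a mean of 0.504 ± 0.042 (SD, n = 2).

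Among the secreted proteins, *SPP1* (ENSG00000118785, chromosome 4 from 88896819 to 88904684, plus strand) encodes osteopontin, a phosphoprotein that binds integrins. Its FPKM was 578 and 613, a mean of 596 ± 24.6 (SD, n = 2), with 69 of 19645 protein-coding genes above it. *SPP1* alone made up 61.6% of the summed mean FPKM of the 10 members.

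*IGFBP7* (ENSG00000163453, chromosome 4 from 57896939 to 57976551, minus strand) encodes a secreted binding protein measured in urine as a marker of stress and cell cycle arrest. Its FPKM was 187 and 183, a mean of 185 ± 3.34 (SD, n = 2), above 98.8% of protein-coding genes. The gene overlaps *POLR2B* on the opposite strand, at 51.4 and 52.0 FPKM, and whether reads were assigned by strand is not given in the sources used here.

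*CLU* (ENSG00000120885, chromosome 8 from 27454434 to 27472217, minus strand) encodes clusterin, an extracellular chaperone. Its FPKM was 9.22 and 8.28, a mean of 8.75 ± 0.667 (SD, n = 2), above 65.5% of protein-coding genes.

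*LCN2* (ENSG00000148346, chromosome 9 from 130911350 to 130915732, plus strand) encodes NGAL, which binds bacterial iron carriers and is a urinary injury marker like KIM-1. Its FPKM was 0.443 and 0.319, a mean of 0.381 ± 0.0881 (SD, n = 2). The pair of urinary markers thus differed, with the lower library of *HAVCR1* at 84.3 and the higher library of *LCN2* at 0.443.

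*CCL2* (ENSG00000108691, chromosome 17 from 32582293 to 32584227, plus strand) encodes MCP-1, the chemokine that draws monocytes through the receptor CCR2. Its FPKM was 0.410 and 0.638, a mean of 0.524 ± 0.161 (SD, n = 2), the widest relative gap between libraries among the members, 1.56-fold. Genes between 0.1 and 1 FPKM differed by a median of 1.42-fold between the libraries, and *CCL2* lay close to that.

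The single transcription factor of the set, *SOX9* (ENSG00000125398, chromosome 17 from 70117161 to 70122557, plus strand), is turned on in tubule cells that divide after injury. Its FPKM was 0.285 and 0.333, a mean of 0.309 ± 0.0342 (SD, n = 2). Its mean depth of coverage was 1.62 and 1.84 reads per base, against 478 and 468 for *HAVCR1*.

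In order of mean FPKM the members ran *SPP1*, *IGFBP7*, *CD24*, *HAVCR1*, *CLU*, *CCL2*, *VCAM1*, *LCN2*, *SOX9* and *PROM1*. The libraries of *CCL2* and *VCAM1* overlapped, as did those of *LCN2* and *SOX9*, so neither pair can be ordered. *CD24* and *HAVCR1* did not overlap (lowest 88.7 against highest 84.7), but their means were only 1.09-fold apart and the level of *CD24* is uncertain. *VCAM1* and *LCN2* were also close, at 0.475 against 0.443. The other neighbours in the order were separated by more than the gap between their libraries, from *CLU* over *CCL2* by 16.7-fold to *IGFBP7* over *CD24* by 2.02-fold, and *SOX9* stood above *PROM1*, which was listed at 0. The libraries held 5.67 and 5.52 gigabases of aligned sequence, as the ratio of coverage to FPKM gives it, and for genes of 100 FPKM or more they differed by a median of 1.04-fold.

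How evenly the annotated transcripts of a gene shared its FPKM differed between the members. For *IGFBP7*, ENST00000295666 held 85.5% and 88.0% of the FPKM in libraries 1 and 2. For *VCAM1*, ENST00000294728 held 96.5% and 99.4%, and for *CCL2*, ENST00000225831 held 82.8% and 90.3%. *SOX9* has 1 transcript.

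Most of *SPP1* was carried by 3 transcripts, ENST00000395080 with 265 FPKM in each library, ENST00000360804 with 156 and 194, and ENST00000237623 with 119 and 114. Among these, ENST00000360804 moved most between the libraries. *HAVCR1* was spread over 4 transcripts, led by ENST00000625904 with 29.7 and 23.8 FPKM, ENST00000523175 with 18.8 and 24.997, ENST00000522693 with 18.5 and 18.8, and ENST00000518745 with 17.1 and 16.6. The first and second of these changed places between the libraries, so the leading transcript of *HAVCR1* cannot be named.

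In *CLU* and *LCN2* the split was less stable. The *CLU* transcript ENST00000520491 held 3.58 FPKM, or 38.9% of the gene, in library 1 and was listed at 0 in library 2. *LCN2* was assigned to ENST00000277480 in library 1 (96.4%) and wholly to ENST00000373017 in library 2. Summed over transcripts, the libraries differed 1.11-fold for *CLU* and 1.39-fold for *LCN2*.

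**Figure D2:**
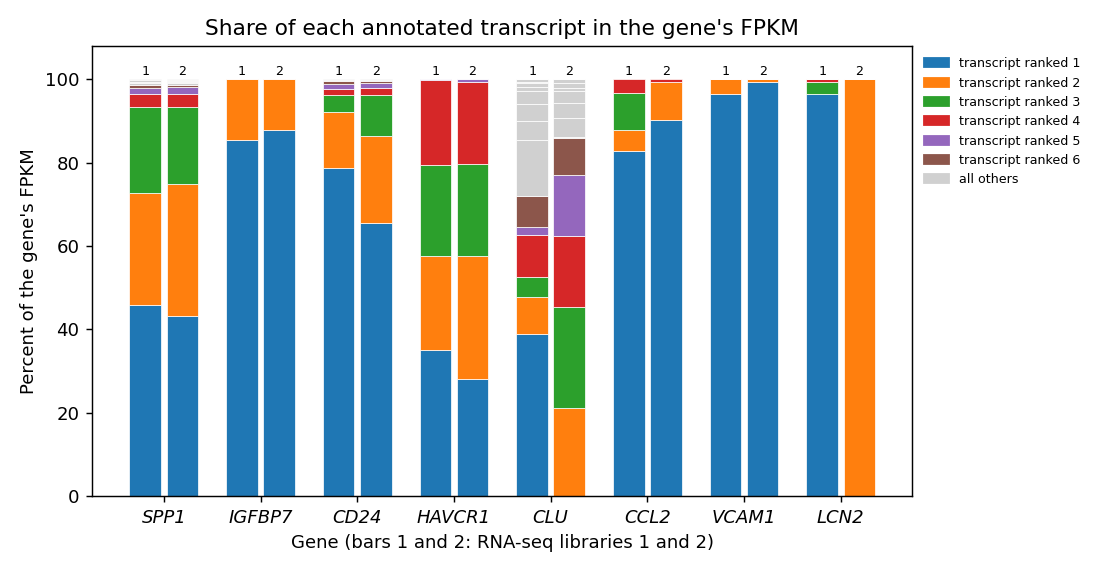
Percent of a gene's FPKM (vertical axis) held by each annotated transcript in RNA-seq libraries 1 and 2 (paired bars), for the 8 genes with more than 1 transcript above 0, coloured by rank of mean FPKM within the gene. The bars of *IGFBP7*, *VCAM1* and *CCL2* are mostly 1 colour, while those of *LCN2* change from 96.4% of the first transcript to none of it.

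Marks were read at the annotated transcription start sites (TSSs) of the 9 members in the GRCh37 annotation, which have between 1 (*SOX9*) and 18 (*PROM1*) distinct starts, where the median protein-coding gene has 5. A gene with more starts has more chances of a nearby peak. A mark was counted where a peak lay within 1 kb of any start in both replicates. H3K4me3 was counted at 4 of 9 members (*CLU*, *SOX9*, *PROM1* and *IGFBP7*), beside 70.3% of protein-coding genes. H3K27ac was counted at 5 of 9 (*HAVCR1*, *LCN2*, *SPP1*, *VCAM1* and *IGFBP7*), beside 55% of protein-coding genes. H3K27me3 was counted at 2 of 9 (*SOX9* and *PROM1*), beside 11.4%. *CCL2* had none of the marks in both replicates.

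**Figure D3:**
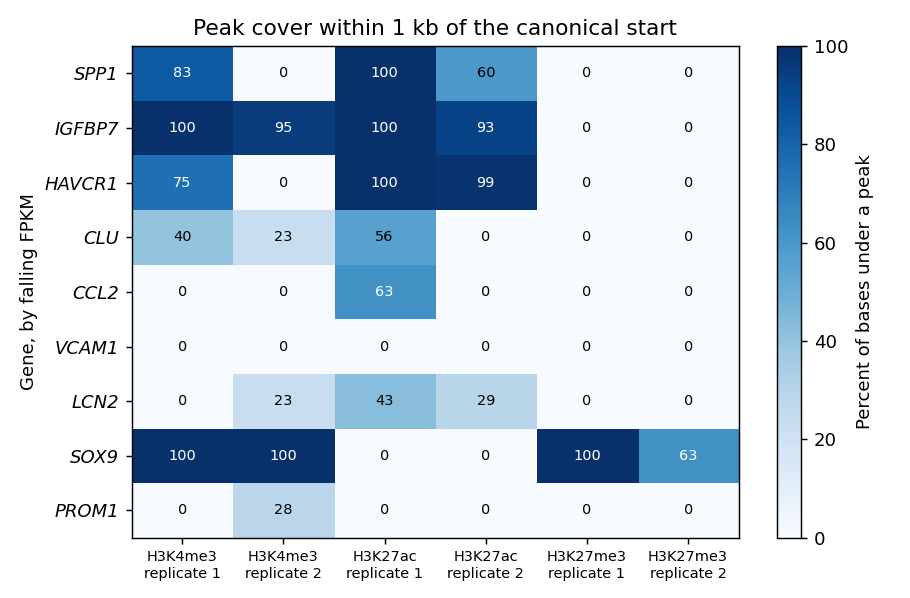
Percent of the bases within 1 kb of the Ensembl canonical start that lie under a peak (numbers and colour), for 9 genes in order of falling FPKM (rows) and 3 marks in 2 replicates (columns). *SPP1* and *HAVCR1* are at 83 and 75 for H3K4me3 in replicate 1 and at 0 in replicate 2, and *SOX9* alone has H3K27me3 there.

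*IGFBP7* was the 1 member with H3K4me3 and H3K27ac in both replicates and no H3K27me3 in either, the pattern of 51.4% of protein-coding genes, whose median FPKM was 11.8. Its H3K4me3 peaks spanned 57974705 to 57977787 (replicate 1) and 57975434 to 57977455 (replicate 2), and its H3K27ac peaks 57975015 to 57977616 and 57975546 to 57977408, all over the start at 57976551 that carried nearly all of its FPKM. A second annotated start at 57931769, with 0.0102 FPKM in library 1 and 0 in library 2, had an H3K27ac peak in replicate 1 only.

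*HAVCR1* lay under an H3K27ac peak of 35520 bp in replicate 1, from 156453285 to 156488804, and 18 of the 57687 peaks of that list were wider. It covered 82.2% of the gene body, and the peaks of replicate 2 covered 42.2%. Over all protein-coding genes the medians were 4.05% and 0.909%. Of the 11460 protein-coding genes of at least 20 kb, 13 had a larger covered share in replicate 1 and 8 in replicate 2.

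H3K4me3 at *HAVCR1* differed between the replicates. In replicate 1, a peak of 5488 bp from 156480715 to 156486202 covered the starts at 156486127 and 156486130, and in replicate 2 no peak lay within 1 kb of any start, the nearest being 44821 bp from the canonical start. The starts at 156486127 and 156486130 carried 18.8 and 18.5 FPKM in library 1 and 24.997 and 18.8 in library 2. Transcripts without a start in the GRCh37 annotation carried another 55.7% and 48.3% of the gene.

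*SPP1* was alike in this respect. Its H3K4me3 peak in replicate 1 spanned 4462 bp from 88896197 to 88900658 and held all 13 annotated starts, and in replicate 2 the nearest peak lay 31254 bp away. H3K27ac formed a peak of 8108 bp in replicate 1, from 88893762 to 88901869, and 3 peaks within 1 kb of its starts in replicate 2. The peaks of replicate 2 from 88895492 to 88896760 and from 88896995 to 88897291 covered 59.6% of the 2 kb around the canonical start. The third, from 88898728 to 88901398, lay outside those 2 kb.

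Of protein-coding genes with a mean of at least 50 FPKM, 99.3% had H3K4me3 in both replicates, and 1 of the 3 members with such a level and annotated starts (*IGFBP7*) did. Among these 1154 genes, 6 had H3K4me3 in replicate 1 and not in replicate 2, and *HAVCR1* and *SPP1* were among the 6. The other 4, named because the count was small and after their values were seen, were *TAGLN*, *CXCL8*, *NNMT* and *SLN*. The H3K4me3 lists held 29130 peaks of median width 1194 bp in replicate 1 and 73942 of 434 bp in replicate 2. The study's own sequencing statistics list a lower read depth and a lower share of reads in peaks for the replicate with the narrower peaks. The part of these differences in the results was not tested.

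*CLU* had narrow H3K4me3 peaks over its upstream starts in both replicates, of 617 and 467 bp over the start at 27472217. H3K27ac was called there in replicate 1 only, from 27471811 to 27472925. Its 8 other starts, within the gene, had no peak of any mark within 1 kb. They carried 71.7% of its FPKM in library 1 and 52.5% in library 2.

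*SOX9* had H3K4me3 and H3K27me3 over its only start. The H3K4me3 peaks spanned 2219 and 2323 bp, from 70116165 to 70118383 and from 70116054 to 70118376. H3K27me3 spanned 4870 bp in replicate 1, from 70113356 to 70118225, and in replicate 2 it was split into peaks of 3385 and 834 bp on either side of the start. The nearest H3K27ac peaks lay 217345 and 217579 bp downstream.

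*PROM1* was also counted with both H3K4me3 and H3K27me3, but largely at different starts. H3K4me3 was found near the upstream starts, with peaks at 16084019 to 16084338 (replicate 1) and at 16084053 to 16084373 (replicate 2), and replicate 2 had another from 16085253 to 16085540 that overlaps the printed stretch. The H3K27me3 peaks near the internal start at 15973568 were of 299 and 507 bp and did not overlap each other, and near the upstream starts only replicate 2 had a peak, of 385 bp. Both marks in both replicates were found at 7.02% of protein-coding genes, whose median FPKM was 0.178, and at 2 of 9 members, at 0.309 (*SOX9*) and 0 (*PROM1*).

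*LCN2* had H3K27ac near its start in both replicates, from 130910751 to 130911605 and from 130910228 to 130911317, although its FPKM was below 1. H3K4me3 was called in replicate 2 only, in 2 peaks of 469 and 492 bp, and H3K27me3 in neither replicate. The RefSeq promoter stretch printed above lies partly under the replicate 1 peak.

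*VCAM1* had no peak of any mark within 1 kb of its canonical start at 101185298, from which 96.5% and 99.4% of its FPKM came. Its H3K27ac peaks, at 101199314 to 101201354 (replicate 1) and 101200125 to 101200470 (replicate 2), lay about 15.0 kb downstream, over an exon. The replicate 1 peak held a start at 101200731 that carried 0.0166 and 0.00303 FPKM, and the replicate 2 peak lay next to that start. *VCAM1* was therefore counted with H3K27ac only through that internal start.

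*CCL2* had H3K27ac over its start in replicate 1, in a peak of 3769 bp from 32578792 to 32582560. In replicate 2 a peak of 375 bp lay inside that span, from 32579079 to 32579453, and its near edge was 2851 bp upstream of the canonical start, outside the 1 kb limit. H3K4me3 came no nearer than 705362 bp in replicate 1 and 19040 bp in replicate 2.

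Within 50 kb of their starts, peaks at the starts included, the 9 members had 48 H3K27ac peaks in replicate 1 and 42 in replicate 2. Of these, 21 of replicate 1 (43.8%) and 41 of replicate 2 (97.6%) overlapped a peak of the other replicate, beside 44.1% and 97.4% of all peaks. Shared H3K27ac outside 1 kb of its own starts was found for 7 of 9 members, all but *SOX9* and *VCAM1*, beside 69.9% of protein-coding genes. Leaving out segments at the starts of other protein-coding genes, 26 of 34 shared segments remained, at 6 members.

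**Figure D4:**
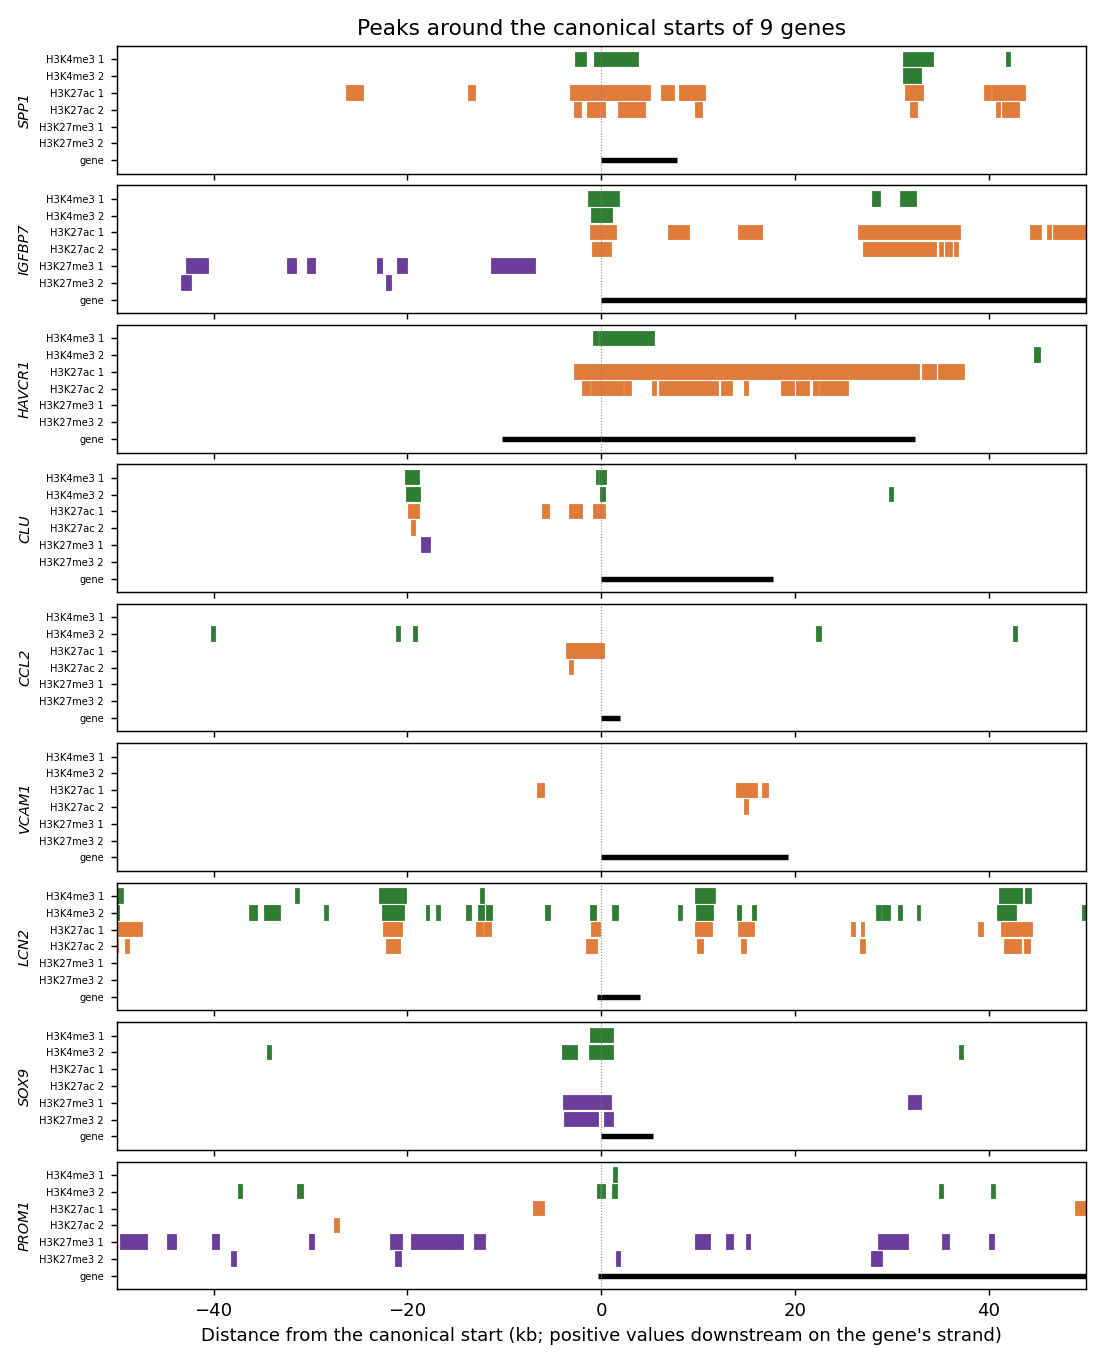
Peaks of 3 marks in replicates 1 and 2 (rows, coloured by mark) within 50 kb of the canonical start of 9 genes (panels, in order of falling FPKM), against distance from that start in kb, with the gene as a black bar. Peaks are drawn at least 0.15 kb wide. The wide H3K27ac block of *HAVCR1* lies over the gene, *SOX9* has none, and the peaks around *LCN2* lie mostly at neighbouring genes.

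*HAVCR1* had 10 such segments, all within the 35520 bp of replicate 1 and none at the start of another protein-coding gene. *IGFBP7* had 7, all in introns of the gene, among them the overlap of a replicate 1 peak of 10460 bp and a replicate 2 peak of 7391 bp around 31 kb downstream of the start (midpoints at 31.8 and 30.8 kb). *SPP1* had 5, of which 1 lay at the start of *PKD2*. *PROM1* had 2, with midpoints at 50.6 and 163 kb downstream of its canonical start in replicate 1. The farther one lay outside the gene, and the nearest protein-coding start to it was that of *FGFBP1*, 17.6 kb away, a gene at 0.793 and 1.21 FPKM. *CCL2* had the 1 described above.

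*LCN2* had 8 shared segments, of which 2 were away from the start of another gene, and *CLU* had 1, at the start of *SCARA3*. *LCN2* lies among 5 protein-coding genes with a start within 50 kb, *DNM1*, *CIZ1*, *BBLN*, *PTGES2* and *SLC25A25*, all of them with H3K4me3 and H3K27ac in both replicates. Their mean FPKM ran from 9.02 (*SLC25A25*) to 53.7 (*DNM1*), against 0.381 for *LCN2*. *CCL2*, in contrast, lies beside *CCL7* and *CCL11*, both listed at 0. *HAVCR2*, with its nearest start 29.8 kb from those of *HAVCR1*, was at 0.0881 and 0.162 FPKM. It was counted with H3K4me3 and H3K27ac in both replicates. Neither mark had a peak within 1 kb of that nearest start, so both were counted at a farther start of *HAVCR2*. *POLR2B* beside *IGFBP7* was at 51.7, *PKD2* beside *SPP1* at 11.3 and *SCARA3* beside *CLU* at 23.8.

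The members were set beside 32 other genes of tubule injury and repair, of which 30 reached 1 FPKM in both libraries, beside 58.8% of protein-coding genes. The median of this list was 57.0 FPKM, and the 4 highest were *S100A6* at 963 ± 29.0, a calcium-binding protein, *VIM* at 921 ± 299.7, the intermediate filament of dedifferentiated tubule cells, *CYR61* at 802 ± 16.9, a matrix protein, and *ANXA2* at 509 ± 2.86, a membrane-binding annexin (SD, n = 2 for each). The libraries of *VIM* lay far apart, at 709 and 1133 FPKM, as did those of *TIMP2* at 20.5 and 95.8. *FABP1* and *TFF3* were listed at 0. H3K4me3 was counted at 25 of the 32, beside 70.3% of protein-coding genes, H3K27ac at 25, beside 55%, and H3K27me3 at none, beside 11.4%.

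The partners and relatives of the members differed by family. Of the integrin subunits that bind osteopontin, *ITGB1* was at 324, *ITGB3* at 94.5, *ITGAV* at 64.5 and *ITGB5* at 48.6 FPKM. *ITGA9*, another of them, was at 0.0459 and 0.0146 and carried H3K4me3 and H3K27me3 in both replicates. Of the sister genes of *SPP1* on chromosome 4, *IBSP*, *DSPP* and *MEPE* were listed at 0 and *DMP1* was at 0.0197 in library 1 and 0 in library 2. The NGAL receptors stood at 6.26 FPKM (*SLC22A17*) and 0 (*LRP2*). *CCR2*, the receptor of CCL2, and the related chemokines *CCL7*, *CCL8*, *CCL11*, *CCL13* and *CCL1* were all listed at 0. *ITGA4*, a part of the integrin that binds VCAM1, was at 2.99. Of the clusterin receptors, *VLDLR* was at 18.5 and *LRP8* at 8.30.

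Among the relatives of SOX9, *SOX4* was at 39.4 FPKM, and *SOX8*, *SOX10* and *SOX2* were listed at 0. *SOX2* carried H3K4me3 and H3K27me3 in both replicates, as *SOX9* did. *PROM2* was at 0.415, against 0 for *PROM1*. In the IGFBP family, *IGFBP3* at 196 stood beside *IGFBP7* at 185, *IGFBP6* was at 18.8 and *IGFBP4* at 3.70, while *IGFBP1*, *IGFBP2* and *IGFBP5* were at or below 0.348 and carried H3K4me3 with H3K27me3 in both replicates. Over all 35 partners and relatives, 13 reached 1 FPKM in both libraries, beside 58.8% of protein-coding genes. Of the 35, 15 were listed at 0, while 15796 of 19645 protein-coding genes had a mean above 0.

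**Figure D5:**
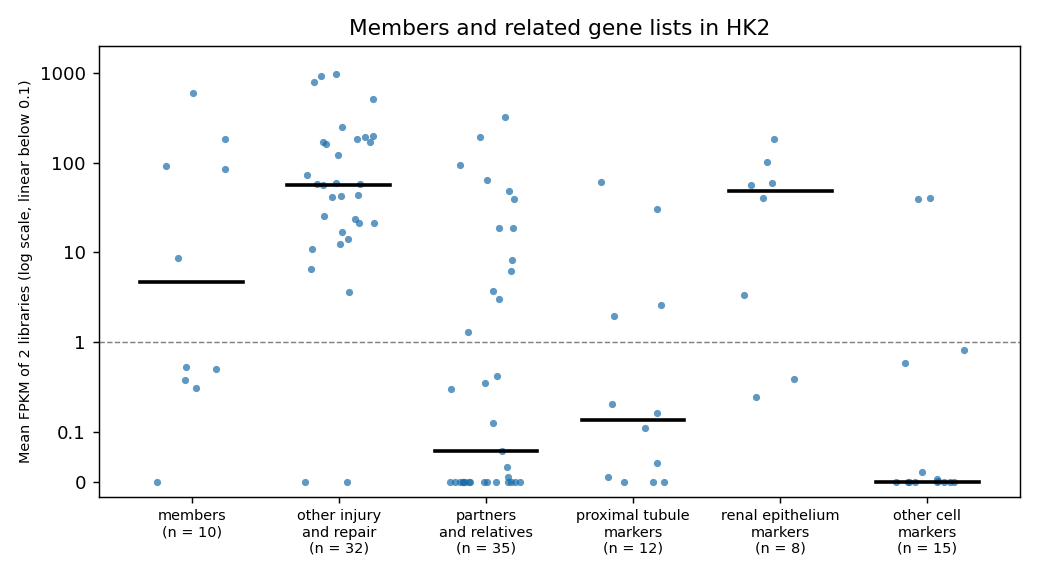
Mean FPKM of 2 RNA-seq libraries (vertical axis, logarithmic above 0.1 and linear below) for each gene of the members and of 5 related lists, with the median of each list as a black bar and an FPKM of 1 as a dashed line. *LRP2*, *KRT8* and *KRT18* are in 2 lists each. The median was 4.64 for the members, 57.0 for the other injury and repair genes and 0.0615 for the partners and relatives.

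The label of the cells was checked against markers, for which the share of all protein-coding genes at 1 FPKM in both libraries was 58.8%. Of 12 proximal tubule markers, 4 (*GGT1*, *DPP4*, *AMN* and *SLC5A2*) reached 1 FPKM in both libraries, and *LRP2*, *SLC22A6* and *HNF4A*, which define the healthy proximal tubule, were listed at 0. Of 8 general renal epithelial markers, 6 did, led by *KRT8* at 182 and *PAX8* at 102. Of 15 markers of leukocytes, endothelium, podocytes, fibroblasts and distal nephron, *CD68* at 39.6 and *COL1A1* at 40.1 did. The fibroblast markers *COL3A1* and *PDGFRB* did not, at 0.592 and 0.813. Of the 15 markers, 8 were listed at 0, among them the leukocyte markers *PTPRC* and *CD3E*. The summed FPKM of the 15 markers was 84.3 in library 1 and 78.0 in library 2. Of that, *CD68* gave 42.5 and 36.8, and *COL1A1* gave 40.3 and 39.9. The material was a cultured line and not tissue, and any part of other cells in the members' levels was not tested.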

How the data were processed

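RNA-seq and ChIP-seq files of HK2 cells were used, without the input DNA and the HiChIP libraries, which are not analysed here. The RNA-seq reads were mapped with HISAT2, and the authors deposited coverage, FPKM and TPM per annotated transcript from StringTie 1.3.3. Per the file headers the annotation was GENCODE version 27 on GRCh38, although hg19 is the build in the study's methods. The ChIP-seq reads were aligned with Bowtie2 (hg19) and each replicate had its own MACS2 peak calls. The lists the authors deposited hold positions without scores, so the depth behind a peak is unknown.

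From these files, FPKM was summed per gene, leaving out the copies of the pseudoautosomal genes on Y. Genes and transcripts were joined to the GENCODE version 44 annotation mapped to GRCh37 by Ensembl identifier without version, and no position of GRCh38 was used with peaks. Peaks on 24 chromosomes were set against all annotated TSSs, and an overlap of 1 bp counted as shared between replicates. The background was 19645 protein-coding genes in both sources. Promoter sequences came from RefSeq (GRCh38.p14), where 6 of 10 members matched, and all entries of that table gave the motif shares. Python 3.11.15, numpy 2.4.6, pandas 2.3.3 and matplotlib 3.10.9 were used, and the interval functions were tested on simulated peaks. All groups were the same cells under 1 condition, so no test was run and values are given with their spread.

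The members and the gene lists were chosen with earlier results of these data known. The 4 highest genes of each list of other injury genes and of partners were to be named, and so were protein-coding neighbours within 50 kb at 1 FPKM or more in both libraries or a shared peak nearer to them. Other partners, and *TIMP2*, *FABP1* and *TFF3*, were named after their values were seen. Alternatives covered TPM, single transcripts, the FPKM level, the windows, the choice of starts, peak width, overlap and left-out replicates.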

Additional observations from a re-analysis of the deposited data

How the results depend on the processing

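No paired analysis was possible because no test was run, all samples being of 1 condition. Of 40 alternatives for the counts of members and of shared H3K27ac peaks, 31 stayed within 1.5 times the main count. At an FPKM of at least 0.1, 9 members passed in place of 5, and 7 did with TPM. With the start of the highest transcript only, which could not be placed for *HAVCR1* and *PROM1*, H3K4me3 was counted at 2 members, H3K27ac at 3 and H3K27me3 at 1. A peak in either replicate gave 7 members with H3K4me3. Peaks of at least 500 bp left 2 with H3K4me3 and 1 with H3K27me3, and starts of protein-coding transcripts alone left 1 with H3K27me3. The 1 left was *SOX9*. A window of 100 kb gave 41 shared H3K27ac peaks of replicate 1 in place of 21. Single ChIP-seq replicates gave 5 to 6 members with H3K4me3, 5 to 7 with H3K27ac and 2 with H3K27me3 in each. Without a given RNA-seq library, 5 members passed an FPKM of 1 in either case.

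TPM ran 2.76 and 2.78 times FPKM in the 2 libraries, so it raised the values without changing their order. Using only the highest transcript lowered *HAVCR1* to 26.7, *SPP1* to 265 and *CLU* to 1.79 FPKM. That transcript of *CLU* was listed at 0 in library 2, so 4 members in place of 5 reached 1 FPKM in both libraries. FPKM carries no count, so no interval for counting error can be given, and members below 1 FPKM rest on a mean coverage of at most 3.52 reads per base. Replicates of ChIP-seq differed in read depth and in number and width of peaks. A missing peak in these lists does not show that the mark is absent.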

Other observations

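Beyond *SOX9*, H3K27me3 lay within 50 kb of the canonical start in both replicates at *IGFBP7* and *PROM1*, and at *CLU* in replicate 1 only (0.875 kb). Within 50 kb of the canonical start of *IGFBP7*, H3K27me3 covered 9.79 kb in 6 peaks in replicate 1 and 1.26 kb in 2 peaks in replicate 2, all of them upstream, with the nearest edge at 6798 and 21705 bp from the start. *PROM1*, listed at 0, had 18.3 kb in 13 peaks in replicate 1 and 2.30 kb in 4 peaks in replicate 2. In its gene body, H3K27me3 covered 14.3% and 2.22%. *HAVCR1*, *SPP1*, *LCN2*, *VCAM1* and *CCL2* had no H3K27me3 peak within 50 kb in either replicate, while their FPKM ran from 0.381 (*LCN2*) to 596 (*SPP1*).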
